A study of Mus musculus with 7 samples.

Results

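The genes described here encode the machinery that builds peroxisomes and the enzymes and membrane proteins with which peroxisomes oxidize fatty acids and start plasmalogen synthesis. They were taken by name as 33 of the 22880 genes in the expression table of optic nerves from mice at postnatal day (P) 14, 13 of them peroxins and 20 enzymes and transporters. RNA was measured in 4 control mice, which were Fasn lox/lox and carried no Cre, and in 3 conditional mutants, which were olig2cre FASN lox/lox. Both groups carried the floxed Fasn allele on a C57Bl/6 background, and each sample was RNA from both optic nerves of 1 mouse of that age. Fasn encodes fatty acid synthase, which makes palmitate from malonyl-CoA. Cre was driven by Olig2 regulatory elements to recombine in the oligodendrocyte (OL) lineage, and the RNA of the whole nerve also holds that of astrocytes, microglia, endothelial cells and other cells. The comparison asks how transcripts for peroxisome assembly, fatty acid oxidation and ether lipid synthesis stood when Fasn was targeted in the OL lineage.

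Peroxisomes import folded enzymes from the cytosol through a set of peroxins. They shorten very long chain and branched fatty acids by beta-oxidation, shorten methyl-branched acids by alpha-oxidation, and carry out the first reactions of ether lipid synthesis, which continues in the endoplasmic reticulum to plasmalogens. Ethanolamine plasmalogens are abundant in myelin, and inherited defects of peroxins or of phytanoyl-CoA hydroxylase affect white matter or peripheral nerve.

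Levels are given as FPKM, read fragments scaled by transcript length and library size, as deposited by the authors. Differences were tested with limma on log2(FPKM + 0.5), adjusted by the Benjamini-Hochberg method over all 13866 genes that reached an FPKM of 0.5 in at least 3 samples, with a threshold of 0.05. Of all genes tested, 2.62% passed this threshold and 21.1% had control and mutant values that did not overlap. The targeted gene was checked first. Fasn was at 210, 169, 211 and 228 FPKM in the 4 controls and at 69.3, 50.5 and 49.0 FPKM in the 3 mutants. Every mutant lay below every control, with a log2 fold change of -1.86 ± 0.138 (SE) and an adjusted p of 0.00312 in limma. Between 27452222 and 43462575 reads per sample were recovered from the table, and each of the 33 genes rested on 76 to 9370 reads in a sample.

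All 33 peroxisomal genes passed the expression minimum. In control nerves 10 genes had a mean of at least 50 FPKM, 13 lay between 10 and 50 FPKM, and 10 lay below 10 FPKM. Scp2, which encodes sterol carrier protein and a peroxisomal thiolase, was the highest at 180 ± 7.47 FPKM (SD, n = 4). It was followed by Pex19 at 108 ± 5.66, by Ech1 at 107 ± 3.99, by Hsd17b4 at 97.6 ± 4.27, by Cat at 89.0 ± 3.04 and by Far1 at 88.7 ± 7.21 FPKM. From Pex19 to Far1 the sample values of each gene overlapped those of its neighbours in this order, while every Scp2 sample lay above them. At the low end, Far2 and Abcd2 were both at 1.29 FPKM with an SD of 0.153 and 0.154. The coefficient of variation among controls had a median of 6.08% over the 33 genes and ran from 2.26% for Pex13 to 12.9% for Pex6.

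Only Phyh differed between genotypes at the threshold in limma, and it was higher in the mutants. This is 1 of 33 genes or 3.03%, beside 2.62% of all genes tested (1.26% higher, 1.36% lower), and 8 of the 33 had an unadjusted p under 0.05, beside 24.4% of all genes tested. Control and mutant values did not overlap for 8 of the 33 genes, or 24.2%, beside the 21.1% of all genes, and both shares lay near their background. In 3 of these 8 (Phyh, Pxmp2 and Amacr) the mutants were higher. In the other 5 (Pxmp4, Far1, Pex19, Abcd3 and Pex10) the mutants were lower. Over all genes 12.9% were higher without overlap and 8.26% lower, and this split was not tested. It changed with normalised counts, in which the groups of Pxmp2 and Amacr overlapped. Those of Acaa1a, Cat and Hsd17b4 were then apart, with the mutants lower. The 32 genes other than Phyh had adjusted p values of 0.0599 to 0.986. The 95% intervals of their log2 fold changes reached from -0.47 to 0.71 at their widest. For 30 of the 33 genes the whole interval lay within 0.5 on either side of 0.

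**Figure D1:**
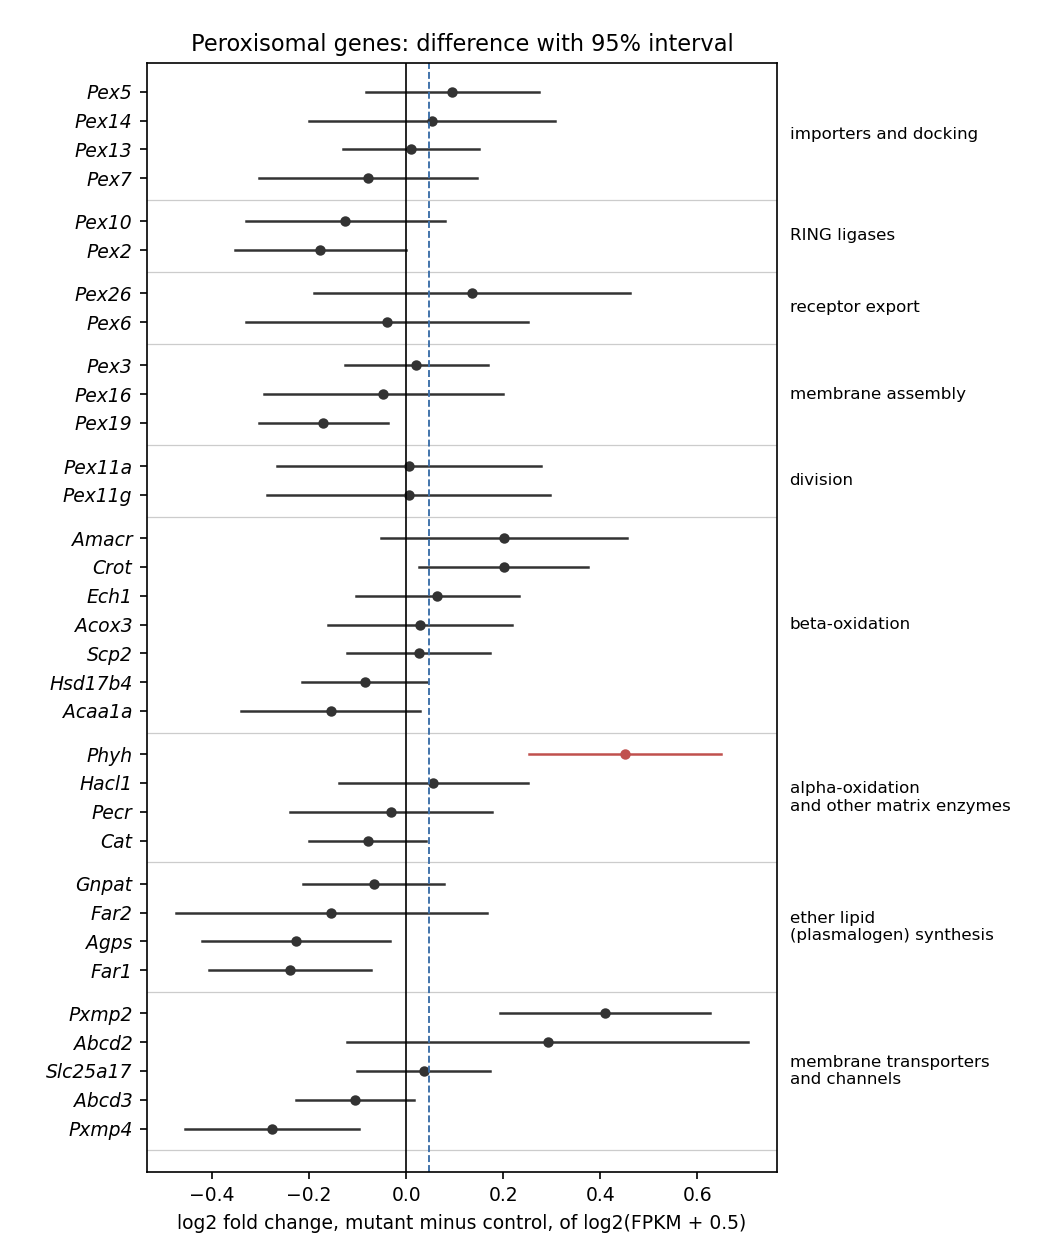
The log2 fold change of log2(FPKM + 0.5), mutant minus control, on the horizontal axis for each of the 33 genes, grouped by role, with bars for the 95% interval from limma. The red point marks Phyh at 0.45, and the dashed blue line marks the median of all genes tested at 0.05.

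The median log2 fold change was 0.0051 over the 13 peroxins and -0.0027 over the 20 enzymes and transporters, beside 0.05 over all genes tested. None of these medians was tested. The sign of a small difference depended on how samples were scaled. With FPKM, 17 of the 33 log2 fold changes were above 0 and 16 below, beside 39.9% of all genes tested below 0. With the deposited normalised counts, or with each sample centred on its median, 7 were above 0 and 26 below. The median of all genes moved to -0.03 under both, and the share of all genes below 0 was not counted there. The median of the 33 genes minus that of all genes was -0.043 with FPKM, with normalised counts and with median centring.

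Markers of the cell types in the nerve shifted between the groups as well, in the same directions as some peroxisomal genes. In bulk RNA, fewer cells of a type and less RNA per cell cannot be told apart. The summed FPKM of 6 markers of myelinating OLs was 54821 to 62541 in controls and 39713 to 50945 in mutants, with 2 of 6 (Mag and Cnp) lower at the threshold in limma. Both calls were lost with the replicate number as a block (adjusted p = 0.0726 for Mag and 0.0605 for Cnp in limma), and each held in only 1 of the 7 fits that left out 1 sample. For 4 markers of OL progenitors the sums were 329 to 361 and 245 to 285, with 2 of 4 (Cspg4 and Gpr17) lower. Most of this sum was Gpr17, which the authors place among transcripts enriched in myelin-forming OLs. Without Gpr17, a choice made after seeing the data, the sums overlapped at 85.3 to 117 and 93.2 to 106. Pdgfra and Ptprz1 overlapped between groups, with log2 fold changes of -0.14 and 0.08. With 1 sample left out, Gpr17 stayed past the threshold in 1 of the 7 fits and Cspg4 in 0. For 5 astrocyte markers the sums were 2088 to 2441 and 2633 to 3140, with 2 of 5 (Aldh1l1 and Gja1) higher, each of which held in 3 of the 7 fits that left out 1 sample, and 3 of 5 (with Slc1a3) were higher with the block. Far1, Pxmp4, Pex19, Abcd3 and Pex10 were lower in every mutant than in any control, as was the myelinating OL sum. Phyh, Pxmp2 and Amacr were higher, as were the astrocyte, microglia and endothelial sums. These genes were named because their groups were apart. The shared direction follows from that choice and does not link a gene to a cell type. Single markers were apart for 4 of 5 in astrocytes, 4 of 4 in endothelial cells and 1 of 5 in microglia (Csf1r). Most of the astrocyte sum was Gfap, with an adjusted p of 0.0953 in limma. The part of the marker shifts in the peroxisomal results was not tested.

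No tested marker of the other cell types passed the threshold in limma with genotype alone. Of the photoreceptor and skeletal muscle markers only 1 of 4 each (Sag and Tnnt3) reached the expression minimum and was tested. With the replicate number as a block 3 of 4 fibroblast markers (Col1a1, Col1a2 and Dcn), 1 of 5 microglia markers (Csf1r), 1 of 4 endothelial markers (Flt1) and 1 of 4 neuron markers (Thy1) passed, all higher in the mutants, with adjusted p values of 0.0235 to 0.0449 in limma. The sums were 110 to 127 FPKM in controls and 143 to 158 FPKM in mutants for microglia, 64.1 to 74.0 and 81.0 to 85.3 FPKM for endothelial cells, 413 to 773 and 681 to 1353 FPKM for fibroblasts, and 22.4 to 29.2 and 26.2 to 42.5 FPKM for neurons. Photoreceptor markers were near 0, with sums of 0.863 to 1.10 and 1.01 to 1.22 FPKM. Pde6b was at 0 in every mutant and in controls 1, 3 and 4, and at 0.0094 FPKM in control 2. Skeletal muscle markers summed to 0.738 to 1.38 FPKM in controls, 1.96 and 3.15 FPKM in mutants 1 and 3, and 40.6 FPKM in mutant 2. Without mutant 2, the log2 fold change of Phyh was 0.50 (adjusted p = 0.0357 in limma), and Phyh was again the one of the 33 genes past the threshold.

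**Figure D2:**
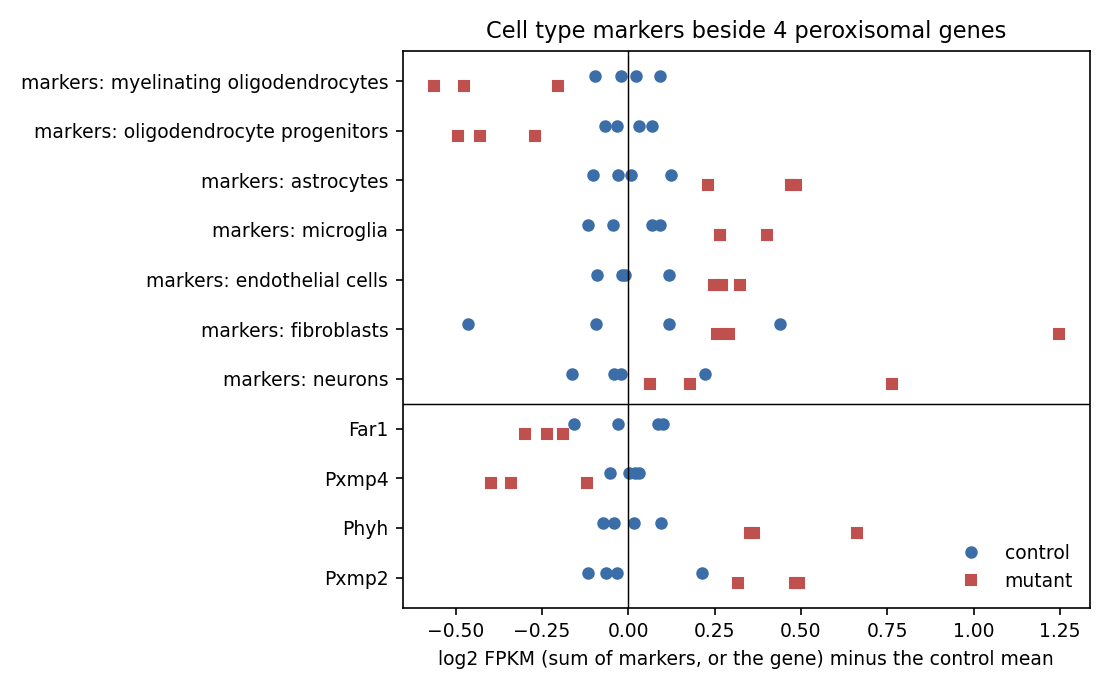
The log2 of the summed FPKM of the markers of 7 cell types, and of the FPKM of 4 peroxisomal genes, minus the control mean, for the 4 control samples (blue circles) and the 3 mutant samples (red squares). The sums of myelinating OL markers and OL progenitor markers (which overlaps without Gpr17), Far1 and Pxmp4 lay lower in every mutant than in any control. The sums of astrocyte, microglia (1 of 5 single markers apart) and endothelial markers, Phyh and Pxmp2 lay higher.

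Phyh encodes phytanoyl-CoA hydroxylase, the first enzyme of alpha-oxidation, and lies on chromosome 2 from 4919019 to 4938730 on the plus strand (GRCm38). It was at 25.8, 23.5, 24.4 and 23.0 FPKM in the controls and at 30.9, 31.1 and 38.2 FPKM in the mutants. Every mutant lay above every control, and mutant 3 lay above the other two mutants. The mean rose from 24.2 ± 1.24 (SD, n = 4) to 33.4 ± 4.18 FPKM (SD, n = 3), which is 1.37-fold on the log2(FPKM + 0.5) scale (log2 fold change 0.45 ± 0.0874 SE, adjusted p = 0.0392 in limma). The size of the difference ran from 0.35 to 0.50 on the log2 scale over all the settings tried. Its call was close to the threshold and held in 7 of 15 settings, the main one included. The adjusted p in limma was 0.0590 with normalised counts, 0.0666 with median centring and 0.0815 without the expression minimum. When 1 sample was left out it was 0.0651, 0.102, 0.120 and 0.0781 without control 1, 2, 3 and 4, 0.0966 without mutant 3, and 0.0449 and 0.0357 without mutant 1 and mutant 2.

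Of the other matrix enzymes, Hacl1, the lyase that cleaves the hydroxylated intermediate made by Phyh, was at 13.8 ± 1.18 FPKM in controls and 14.3 ± 0.973 FPKM in mutants. Cat, the catalase that removes the hydrogen peroxide made by acyl-CoA oxidases, was at 89.0 ± 3.04 and 84.2 ± 1.01 FPKM (log2 fold change -0.08, adjusted p = 0.388 in limma). Pecr, a reductase of enoyl-CoA, was at 4.00 ± 0.243 and 3.90 ± 0.217 FPKM. In none of these 3 genes were the groups apart in FPKM. In normalised counts those of Cat were apart, with the mutants lower (log2 fold change -0.16, adjusted p = 0.180 in limma).

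The promoter windows of Phyh and of Pxmp4 are shown because these were the 2 genes that passed the threshold under one scaling of the samples and not under another. They are the RefSeq windows on GRCm38.p6, from 250 bases before the transcription start to 50 bases after it, at chr2:4918746-4919045 on the plus strand and chr2:154603624-154603923 on the minus strand. Capitals mark AGGTCA (the half-site of nuclear receptors), CCAAT and GGGCGG (the GC box) on either strand, all chosen with the expression values known.
Phyh: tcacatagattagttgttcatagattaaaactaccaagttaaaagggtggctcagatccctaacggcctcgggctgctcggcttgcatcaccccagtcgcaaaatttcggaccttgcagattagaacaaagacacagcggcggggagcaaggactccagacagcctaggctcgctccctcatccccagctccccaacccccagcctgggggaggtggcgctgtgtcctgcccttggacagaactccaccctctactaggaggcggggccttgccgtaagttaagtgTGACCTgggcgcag
Pxmp4: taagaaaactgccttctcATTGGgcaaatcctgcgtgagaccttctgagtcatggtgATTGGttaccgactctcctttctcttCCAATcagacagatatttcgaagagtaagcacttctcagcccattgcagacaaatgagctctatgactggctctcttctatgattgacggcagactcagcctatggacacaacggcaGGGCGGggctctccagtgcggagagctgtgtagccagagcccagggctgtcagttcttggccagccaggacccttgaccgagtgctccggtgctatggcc
The Phyh window held 1 AGGTCA, on the strand opposite to the gene, and neither of the other motifs. The Pxmp4 window held 3 CCAAT, 1 GGGCGG and no AGGTCA. No overlaps arose between capitals in these windows. RefSeq windows matched 27 of the 33 genes, with 31 windows in all and none for Amacr, Abcd2, Pxmp2, Pex19, Pex2 and Hsd17b4. AGGTCA was found in 12.9% of these 31 windows, beside 16.3% of all promoter windows and 12.3% of those of genes tested. The direct repeat of AGGTCA with any 1 base between the copies, which PPAR and RXR bind, was found in none of the 31 windows and in 0.0396% of all windows. CCAAT was found in 41.9%, beside 37.4% of all windows, and GGGCGG in 77.4%, beside 35.7% of all windows and 61.2% of those of genes tested. These matches describe letters in the windows only.

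Ether lipid synthesis starts with Gnpat, which acylates dihydroxyacetone phosphate, and Agps, which exchanges the acyl group for an alkyl group, while Far1 and Far2 supply the fatty alcohol. None of these 4 genes passed the threshold in limma. Of the 4, 2 (Far1 and Agps) had an unadjusted p under 0.05, beside 24.4% of all genes tested. With FPKM all 4 log2 fold changes were below 0, with a median of -0.19, beside 39.9% of all genes tested. The groups were apart for 1 of the 4, Far1, beside 21.1% of all genes tested.

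Far1, the reductase that supplies most of the fatty alcohol, lies on chromosome 7 from 113513834 to 113571511 on the plus strand. It was at 94.9, 93.9, 86.8 and 79.4 FPKM in the controls and at 71.9, 77.7 and 75.3 FPKM in the mutants. The groups did not overlap, but the lowest control and the highest mutant lay close together. The log2 fold change was -0.24 ± 0.0740 (SE) with an adjusted p of 0.105 in limma, and 0.0563 when the replicate number was added as a block. That block left the lowest control, which has no mutant of its number, out of the difference.

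Agps lies on chromosome 2 from 75832177 to 75931350 on the plus strand. It was at 59.0, 56.8, 52.3 and 48.6 FPKM in the controls and at 43.9, 50.9 and 43.9 FPKM in the mutants. Mutant 2 lay above control 4, so the groups overlapped, and the other two mutants lay below every control. The log2 fold change was -0.23 ± 0.0856 (SE, adjusted p = 0.153 in limma).

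Gnpat lies on chromosome 8 from 124863033 to 124890057 on the plus strand. It was at 76.4, 82.2, 76.8 and 71.7 FPKM in the controls and at 74.0, 76.0 and 69.7 FPKM in the mutants, and the groups overlapped widely. The log2 fold change was -0.07 with a 95% interval of -0.21 to 0.08 (adjusted p = 0.558 in limma). Far2, the less abundant reductase, was at 1.29 ± 0.153 FPKM in controls and 1.12 ± 0.249 FPKM in mutants.

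**Figure D3:**
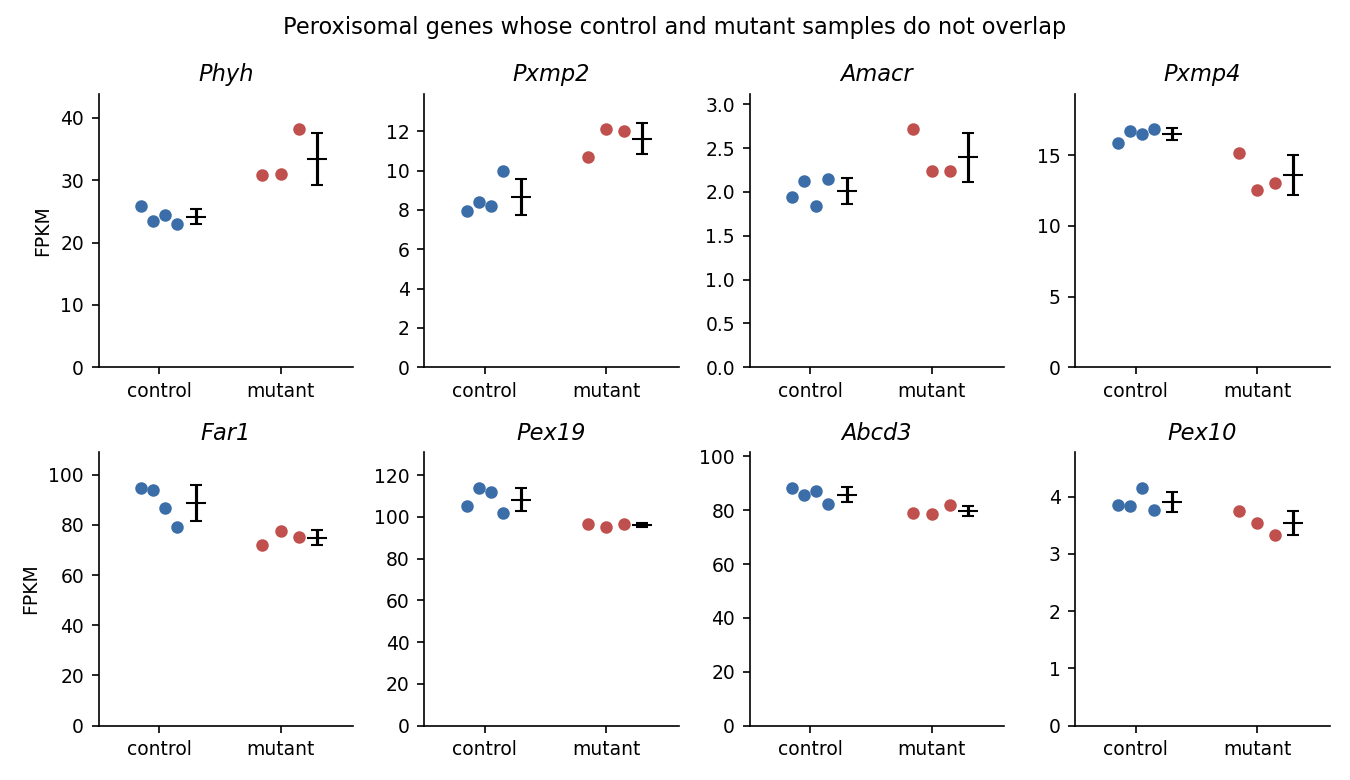
FPKM of each sample for the 8 genes whose control samples (blue) and mutant samples (red) did not overlap, each axis from 0, with the mean and SD beside the points. Phyh, Pxmp2 and Amacr lay higher in the mutants, and Pxmp4, Far1, Pex19, Abcd3 and Pex10 lower.

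Among the 5 transporters and other membrane proteins the groups were apart for 3 (Pxmp2, Pxmp4 and Abcd3), beside 21.1% of all genes tested. None of the 3 passed the threshold in limma on FPKM with genotype alone. Pxmp2 encodes a channel-forming protein of the peroxisomal membrane and lies on chromosome 5 from 110274282 to 110286186 on the minus strand. It was at 7.936, 8.412, 8.226 and 9.984 FPKM in the controls and at 10.72, 12.11 and 12.03 FPKM in the mutants. Mutant 1 lay just above control 4, the highest control. The log2 fold change was 0.41 ± 0.0957 (SE) with an adjusted p of 0.0599 in limma. With the replicate number as a block it was 0.48 with an adjusted p of 0.0281 in limma. No mutant shares the number of control 4, so the block left that control out of the difference. In normalised counts the groups of Pxmp2 overlapped.

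Pxmp4, which encodes another protein of the peroxisomal membrane, lies on chromosome 2 from 154585758 to 154603708 on the minus strand. It was at 15.9, 16.7, 16.5 and 16.9 FPKM in the controls and at 15.2, 12.5 and 13.0 FPKM in the mutants. The controls lay close together and every mutant lay below them, mutant 1 only just. The log2 fold change was -0.28 ± 0.0790 (SE) with an adjusted p of 0.0913 in limma. It was -0.36 with an adjusted p of 0.0462 with normalised counts, and -0.36 with an adjusted p of 0.0388 with median centring.

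Abcd3, a transporter of branched chain acyl-CoA and the most abundant of the 5, lies on chromosome 3 from 121758774 to 121815302 on the minus strand. It was at 88.3, 85.7, 87.0 and 82.2 FPKM in the controls and at 78.8, 78.4 and 82.0 FPKM in the mutants. The groups were apart by the small gap between control 4 and mutant 3, with a log2 fold change of -0.11 ± 0.0535 (SE, adjusted p = 0.260 in limma). Abcd2, a transporter of very long chain acyl-CoA, had a mean of 1.29 FPKM in controls and 1.75 ± 0.647 FPKM in mutants. Mutant 3 alone was high, at 2.49 FPKM, and the other two mutants, at 1.43 and 1.32 FPKM, lay within the range of the controls. Slc25a17, a carrier of CoA and other cofactors, was at 31.4 ± 0.872 and 32.2 ± 1.67 FPKM.

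Of the 7 genes of beta-oxidation none passed the threshold in limma. An unadjusted p under 0.05 was found for 1 (Crot), beside 24.4% of all genes tested. The groups were apart for 1 (Amacr), beside 21.1% of all genes tested. Amacr, the racemase that readies branched acyl-CoA for oxidation, lies on chromosome 15 from 10981756 to 10996624 on the plus strand. It was at 1.95, 2.13, 1.84 and 2.15 FPKM in the controls and at 2.72, 2.24 and 2.24 FPKM in the mutants. Mutant 1 stood above the rest, and the other two mutants lay just above the highest control (log2 fold change 0.20 ± 0.112 SE, adjusted p = 0.302 in limma). In normalised counts the groups of Amacr overlapped.

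The enzymes that carry out the cycle itself overlapped between groups in FPKM. In normalised counts the groups of Hsd17b4 and Acaa1a were apart, with the mutants lower, beside 22.01% of all genes apart. Their log2 fold changes were then -0.16 and -0.23, with adjusted p values of 0.162 and 0.124 in limma. Acox3, an oxidase of branched acyl-CoA, was at 16.4 ± 0.775 FPKM in controls and 16.8 ± 1.80 FPKM in mutants. Hsd17b4, the multifunctional enzyme that hydrates and dehydrogenates the chain, was at 97.6 ± 4.27 and 91.9 ± 2.16 FPKM, with a log2 fold change of -0.09 (adjusted p = 0.385 in limma). Acaa1a, a thiolase, was at 74.9 ± 5.89 and 67.2 ± 5.48 FPKM (log2 fold change -0.16, adjusted p = 0.273 in limma). Its near-identical paralog Acaa1b was listed at a mean of 0.159 FPKM in controls, and how reads shared by the pair were divided is uncertain. Scp2 was at 180 ± 7.47 and 183 ± 11.3 FPKM. Ech1, which handles double bonds, was at 107 ± 3.99 and 112 ± 11.2 FPKM, and Crot, which exports shortened chains as carnitine esters, was at 13.7 ± 0.644 and 15.8 ± 1.26 FPKM (log2 fold change 0.20, adjusted p = 0.156 in limma).

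None of the 13 peroxins passed the threshold in limma. An unadjusted p under 0.05 was found for 2 (Pex19 and Pex2), beside 24.4% of all genes tested. The groups were apart for 2 (Pex19 and Pex10), or 15.4%, beside 21.1% of all genes tested. The log2 fold changes of the 13 ran from -0.18 for Pex2 to 0.14 for Pex26, and all 13 intervals lay within 0.5 on either side of 0. Pex5, the receptor for enzymes with a C-terminal targeting signal, lies on chromosome 6 from 124396816 to 124415067 on the minus strand. It was at 12.81, 12.43, 13.71 and 14 FPKM in the controls and at 14.87, 12.98 and 14.70 FPKM in the mutants. The groups overlapped, with mutant 2 inside the control range (log2 fold change 0.10, 95% interval -0.08 to 0.27, adjusted p = 0.488 in limma).

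Pex7, the receptor for enzymes with an N-terminal signal, which include Agps, Phyh and the thiolase, lies on chromosome 10 from 19859929 to 19907689 on the minus strand. It was at 19.17, 22.01, 19.14 and 20.42 FPKM in the controls and at 16.21, 20.38 and 20.94 FPKM in the mutants. Mutant 1 was the lowest sample and the other two mutants lay inside the control range (log2 fold change -0.08, 95% interval -0.30 to 0.15). Of the docking proteins, Pex13 was at 15.0 ± 0.338 and 15.1 ± 0.473 FPKM and Pex14 at 12.2 ± 1.29 and 12.7 ± 1.74 FPKM.

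Pex19, the chaperone that brings membrane proteins to the peroxisome, lies on chromosome 1 from 172126755 to 172136493 on the plus strand. It was at 105, 114, 112 and 102 FPKM in the controls and at 96.6, 95.1 and 96.5 FPKM in the mutants. The mutants were close together and below every control, with a log2 fold change of -0.17 ± 0.0587 (SE, adjusted p = 0.130 in limma). Its partners in membrane assembly, Pex3 and Pex16, overlapped between groups, with log2 fold changes of 0.02 and -0.05.

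Pex10 and Pex2 encode RING ubiquitin ligases that act on the import receptor. Pex10 lies on chromosome 4 from 155067016 to 155072433 on the plus strand and was at 3.86, 3.83, 4.16 and 3.77 FPKM in the controls and at 3.75, 3.55 and 3.32 FPKM in the mutants. The groups were apart by less than the spread within either of them (log2 fold change -0.12 ± 0.0903 SE, adjusted p = 0.425 in limma). Pex2 was at 34.3 ± 2.28 and 30.3 ± 2.35 FPKM, and its groups overlapped. Pex6, an ATPase that extracts the receptor, and Pex26, its membrane anchor, had log2 fold changes of -0.04 and 0.14. Pex11a and Pex11g, which act in elongation and division, both had a log2 fold change of 0.01.

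**Figure D4:**
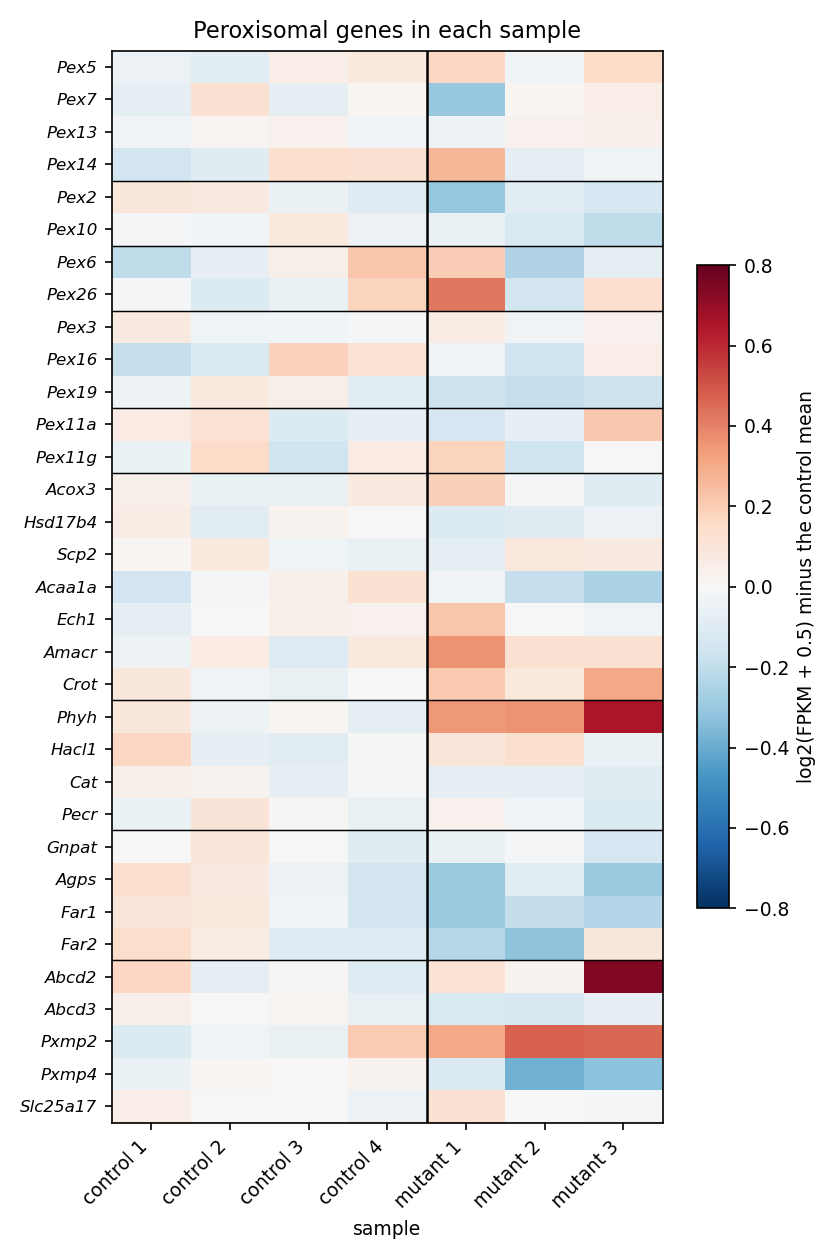
Each of the 33 genes in each of the 7 samples as log2(FPKM + 0.5) minus the control mean, red above and blue below, with lines between roles and between genotypes. Phyh and Pxmp2 are red in all 3 mutants, and Far1 and Pxmp4 are blue in all 3.

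The 33 genes were read beside 42 other peroxisomal genes of the table, of which 38 were tested. None passed the threshold in limma. An unadjusted p under 0.05 was found for 10 of the 38, beside 24.4% of all genes tested. The groups were apart for 7, or 18.4%, beside 21.1% of all genes tested. Of these 7, 5 were higher and 2 lower, beside 12.9% and 8.26% of all genes tested. By role, the groups were apart for 1 of 4 further peroxins, 1 of 12 genes of oxidation and transport, 1 of 7 genes of later ether lipid steps, 4 of 11 redox and other matrix genes and 0 of 4 fission genes. None of these role counts was tested. Tmem189, the desaturase that makes plasmalogens from their alkyl precursors, had a log2 fold change of 0.10 (adjusted p = 0.432 in limma). This gene was picked for its role after its values were seen.

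Of the 33 genes 6 overlap another annotated gene, none of them among the 8 whose groups were apart. Pex3 overlaps Adat2, Pex13 overlaps Pus10, Acaa1a overlaps Myd88 and Slc22a14, Hacl1 overlaps Btd, and Far2 overlaps Ergic2, each on the opposite strand. Scp2 overlaps Podn and Hacl1 overlaps Colq on the same strand. The values of these genes may include reads of their neighbours.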

How the data were processed

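RNA from both optic nerves of each mouse (4 control, 3 mutant, by the labels) was made into stranded poly-A libraries and sequenced single end. The authors aligned reads with STAR 2.5.1b to GRCm38, estimated counts with RSEM 1.2.22, and deposited, for each sample, 2 values per gene: a normalised count (a signal scaled between samples) and an FPKM. The table also holds the authors' edgeR fold changes and p-values, which were not used. Whether counting used the strand is not given in the sources used here. Some peroxisomal genes are not reported here.

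limma 3.58.1 in R 4.3.3, with its trend option, compared the genotypes over the 7 samples on log2(FPKM + 0.5), for genes whose FPKM reached 0.5 in 3 or more of them, and no further term was fitted. Fold changes on this scale understate those of low genes. A count test had been planned for recovered reads, but only 73.3% to 79.3% of values of 0.5 to 10 reads were whole (tolerance 0.02), so reads served for depth alone. Deviations from the group mean correlated at 0.168 to 0.409 over the 3 same-numbered pairs, against -0.353 to 0.205 for the 9 differing pairs. These ranges overlapped. The labels do not say what a number marks, so the pairing comes from the data. It rests on the same values that the block was then fitted to, and is not established. No mutant shares the number of control 4. The block fit therefore left control 4 out of the difference between genotypes. Control and mutant mice are separate animals. An exact permutation test of 4 against 3 cannot go below 0.0286 one-sided or 0.0571 two-sided, so none was used.

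Genes given in every sample were those past the threshold or with groups apart, with Gnpat, Agps, Far1, Pex5 and Pex7 whatever they did. The 33 genes, the other peroxisomal genes and the marker lists were chosen with earlier results of these data known. Alternatives were other pseudocounts (0.1 and 1), minimums, scalings, the replicate block and leaving out each sample.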

Additional observations from a re-analysis of the deposited data

How the results depend on the processing

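Pseudocounts of 0.1 and 1 and a minimum of 1 FPKM changed no call of the 33 genes. Without a minimum, 95 genes of all and 0 of the 33 passed the threshold in limma, against 363 and 1. With the replicate number as a block, 1159 genes passed, and 2 of the 33 (Phyh and Pxmp2). The block changed no other call among the 33. Control 4, whose number no mutant shares, did not enter the difference in the block fit. Leaving out 1 sample gave 6 to 909 genes of all and 0 to 1 of the 33: 62, 15, 6 and 119 genes without control 1, 2, 3 and 4, and 191, 909 and 6 without mutant 1, 2 and 3. With normalised counts and with median centring 1 of the 33 passed, Pxmp4 in place of Phyh. Of all genes called, 175 were higher and 188 lower with FPKM, 102 and 266 with normalised counts, 117 and 283 with median centring, and 890 and 269 with the block. The median log2 fold change of the peroxins was -0.068 with normalised counts, -0.077 with median centring, and -0.053 to 0.043 with 1 sample left out. That of the enzymes and transporters was -0.079, -0.085 and -0.058 to 0.0078. Of the other peroxisomal genes, 1 passed with median centring (Hsdl2, adjusted p = 0.0497 in limma) and 0 to 1 with 1 sample left out (Ephx2, adjusted p = 0.0225 in limma, without mutant 2). By alternatives chosen after seeing the data, the groups were apart for 9 of the 33 with normalised counts and for 9 to 12 with 1 sample left out, beside 22.01% and 24.3% to 37.3% of all genes. The cause of these shifts was not tested. The count tests of edgeR and DESeq2 were not run, because too few values were whole reads. At 4 against 3 samples the widest intervals were those of Abcd2, Pex26 and Far2, all under 10 FPKM.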
